A study of Homo sapiens with 8 samples.

Results

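Histone genes were examined in the RNA-seq profile of hCMEC/D3 cells, a human cerebral microvascular endothelial line with an extended lifespan that stands in for the blood-brain barrier in culture. The set held 81 of the 23346 genes listed in the table. It comprised the 73 genes whose symbol begins with HIST, called HIST genes here, and 8 histone variant genes with polyadenylated transcripts that were listed by name: H1F0, H1FX, H2AFX, H2AFY, H2AFZ, H2AFV, H3F3A and H3F3B. Members were chosen by symbol, not by any measured value. All 8 libraries were replicates of this line and formed 1 group, so no conditions could be compared. Each library was made from polyadenylated RNA. The labels did not say whether the replicates were separate cultures, so a p-value given here measures only the spread between these samples, which may be technical.

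Core histones H2A, H2B, H3 and H4 form the nucleosome, and linker histone H1 binds the DNA where it enters and leaves. Most HIST genes are replication-dependent: they are transcribed in S phase, have no introns, and give an mRNA that ends just after a conserved stem-loop in place of a poly(A) tail. The stem-loop is bound by SLBP, and the U7 snRNP directs the cut after it. Most replacement variants are made throughout the cell cycle from ordinary polyadenylated mRNAs. The variants serve tasks such as DNA damage marking, promoter nucleosomes and chromatin assembly outside replication.

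The stem-loop was found in most HIST genes and, among the listed variants, only in H2AFX, so its sequence is shown for the genes the results turn on. The histone 3′ stem-loop was searched as a pattern of 16 bases with 10 fixed and 6 free, on the coding strand only, in the 200 bases after the stop codon of the GRCh37 reference genome. Capitals mark the 16-base stem-loop, lower case the 5 bases on either side, and each site is written 5′ to 3′ on the gene's own strand.
HIST1H1C, chr6:26055972-26055987, minus strand: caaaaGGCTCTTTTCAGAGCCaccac
HIST1H1E, chr6:26157323-26157338, plus strand: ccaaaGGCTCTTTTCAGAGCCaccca
HIST1H2BK, chr6:27114145-27114160, minus strand: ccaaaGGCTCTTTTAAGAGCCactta
HIST1H2BD, chr6:26158815-26158830, plus strand: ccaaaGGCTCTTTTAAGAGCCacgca
HIST2H2BE, chr1:149857738-149857753, minus strand: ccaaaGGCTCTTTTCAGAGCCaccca
HIST1H4E, chr6:26205229-26205244, plus strand: tcaaaGGCCCTTTTCAGGGCCgccca
HIST4H4, chr12:14923658-14923673, minus strand: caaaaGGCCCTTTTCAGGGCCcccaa
H2AFX, chr11:118965608-118965623, minus strand: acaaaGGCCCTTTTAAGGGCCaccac

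The motif was found in 64 of the 67 HIST genes with an annotated stop codon, 23 to 68 bases after the stop (median 37). It was found in 6 of 18728 other protein-coding genes (0.0320%). H2AFX was the only listed variant among those 6, and its annotated transcript runs 1024 bases past the stem-loop. The stem differed by histone type: all 13 matched H4 genes had a GGCCC stem, 9 of them as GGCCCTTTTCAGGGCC and 4 as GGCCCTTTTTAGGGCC. Outside H4 the common form was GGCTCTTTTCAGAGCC, in 39 genes, followed by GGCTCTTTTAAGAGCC in 9. HIST1H3E had 1 difference from the common form, T8C, counted from the first base of the stem-loop. HIST1H4L differed by T8C from the common H4 form, and HIST1H2BI by T8C and C10A from the common form. A poly(A) signal, AATAAA or ATTAAA on the coding strand, was searched in the last 50 bases of the canonical annotated transcript. It lay there in 3 of 67 HIST genes (4.48%), in 6 of 8 listed variants and in 79.6% of all protein-coding genes. For most HIST genes that transcript is annotated to end a few bases past the stem-loop, so a signal further downstream could not be found. Longer annotated transcripts of the same genes were not searched.

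Library depth ranged from 69388544 to 90205244 counts. All counts were even, so counting error was taken on halved counts, or 34694272 to 45102622 read pairs. Of 8 endothelial marker genes all were detected, with a summed level of 2023 to 4050 CPM (counts scaled to a common library size by TMM). No marker of 4 for astrocytes or of 4 for microglia was detected, and AQP4 and P2RY12 had 0 counts. Of the neuronal markers MAP2 and SYT1 were detected, and of the mural markers 3 of 4. Replicates 2, 7 and 8 stood apart in how the deviations of genes followed transcript length: the slope of log2 deviation on log2 length was -0.23, -0.11 and -0.34 there and 0.09 to 0.15 in the other 5 libraries.

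Most HIST genes were present at low levels, under a mean CPM of 1, while 7 of the 8 listed variants were among the more abundant transcripts. Detected means that CPM was 1 or more in each of the 8 libraries. This held for 13 of 73 HIST genes (17.8%), beside 11980 of all 23346 genes (51.3%). Among the 60 HIST genes not detected, 8 reached a mean CPM of 1 or more, 33 lay between 0.1 and 1, and 11 lay under 0.1 without being at 0. The remaining 8 had 0 counts in every library. Of these, HIST2H2AA3, HIST2H2AA4, HIST2H3A, HIST2H3C, HIST2H4A and HIST2H4B each share their listed coordinates with another row, so their 0 cannot be read as absence of RNA. The others were HIST1H2APS1 and HIST1H4G. Where no read was counted, a level below that of 3 read pairs, 0.0665 to 0.0865 CPM depending on the library, remains possible.

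All HIST genes together took 0.0131% ± 0.00139 of counts (SD, n = 8). Replicate 6 was lowest at 0.0108% (95% Wilson interval 0.0105 to 0.0112) and replicate 7 highest at 0.0151% (0.0148 to 0.0155). These intervals cover counting error only. The 8 listed variants took 0.211% ± 0.0283 (SD, n = 8). Summed CPM of the variants was 16.1 ± 1.98 times that of the HIST genes, and the log2 ratio of HIST to variants was -4.00 ± 0.17 (SD, n = 8). The ratio lay between -4.33 in replicate 8 and -3.79 in replicate 3, so all 8 libraries showed the same order. The distance depends on the scale: the log2 ratio was -2.60 with sums of RPKM (CPM per kilobase of the canonical transcript) and -6.62 between the median log2 CPM of detected genes of each set. Because poly(A)-selected libraries were sequenced, how much of each HIST transcript was captured was not tested. In bulk RNA, fewer cells that express a gene and less RNA per cell cannot be told apart.

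**Figure D1:**
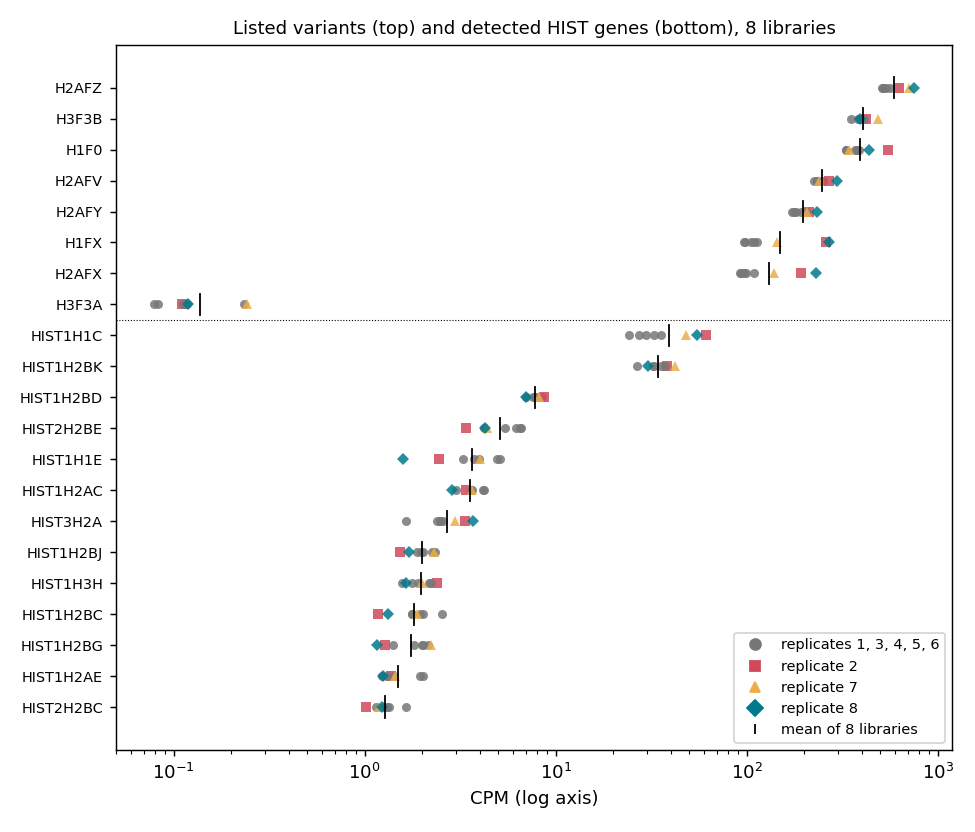
CPM (log axis) of the 8 listed variants and the 13 detected HIST genes, with a point per library and a bar at the mean of 8 libraries. Apart from H3F3A, every variant lies above every HIST gene, and H1FX and H2AFX are highest in replicates 2 and 8.

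HIST1H1C and HIST1H2BK made up 55.6% ± 8.11 of all HIST CPM (SD, n = 8). HIST1H1C, the gene for linker histone H1.2 (chr6:26055968-26056699, 1 exon), had 29.7, 61.1, 32.7, 27.3, 35.8, 24.1, 47.9 and 55.2 CPM in replicates 1 to 8. On CPM, replicates 2, 7 and 8 were the highest and do not overlap the other 5. On the authors' normalised log2 values this order was lost for HIST1H1C. Replicate 2 was at 6.36, but replicates 7 (6.21) and 8 (5.88) lay within the 5.87 to 6.27 of the other 5. HIST1H2BK, an H2B gene (chr6:27106072-27114637), ranged only from 26.8 to 42.3 CPM, with a median of 34.1. Per length, HIST1H1C was at 53.7 ± 18.8 RPKM and HIST1H2BK at 69.7 ± 9.93 RPKM (SD, n = 8), at percentiles 87.3 and 90.8 of detected genes. The HIST1H2BK value divides by a canonical transcript of 495 nt, while its row spans 8566 bases and overlaps HIST1H4I, so its level per length is uncertain. Without these genes the summed HIST level was 57.7 ± 8.86 CPM, lowest in replicates 8 (44.1) and 2 (47.8).

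The next genes were far lower. HIST1H2BD, another H2B gene, had 7.82 ± 0.630 CPM, and HIST2H2BE, the top gene of the HIST2 cluster on chromosome 1, had 5.11 ± 1.20 CPM (SD, n = 8). HIST1H1E, which encodes linker histone H1.4, ranged from 1.58 CPM in replicate 8 to 5.11 in replicate 3. The highest H2A genes were HIST1H2AC at 3.57 ± 0.477 CPM and HIST3H2A, of the HIST3 cluster, at 2.70 ± 0.629 CPM. HIST1H2BJ (2.00 ± 0.291), HIST1H3H (1.96 ± 0.292) and HIST1H2BC (1.80 ± 0.423) completed the 10 HIST genes with the highest mean CPM. Over the 12 detected HIST genes with a known length, the median was 4.39 RPKM, against 11.4 RPKM over all detected genes.

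By histone type, H2B and H1 held most of the HIST signal. The 20 H2B genes summed to 61.4 ± 5.84 CPM with 7 detected, and the 6 H1 genes to 44.9 ± 12.4 CPM with 2 detected. The 18 H2A genes summed to 13.0 ± 1.21 CPM with 3 detected. The 14 H3 genes summed to 6.61 ± 0.905 CPM, and HIST1H3H was the only one detected. None of the 15 H4 genes was detected; together they gave 5.57 ± 2.25 CPM, from 2.27 to 8.80 between libraries (all SD, n = 8). Of the H4 genes, HIST1H4H was highest at 1.48 ± 0.538 CPM. By cluster, the 56 HIST1 genes on chromosome 6 summed to 118 ± 15.1 CPM and the 13 HIST2 genes to 9.10 ± 1.55 CPM. The 3 HIST3 genes gave 3.18 ± 0.605 CPM and HIST4H4, the single HIST4 gene on chromosome 12, 1.25 ± 0.680 CPM.

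Among the variants, H2AFZ, the gene of H2A.Z found at promoter nucleosomes, was highest per length at 683 ± 108 RPKM (SD, n = 8; chr4:100869244-100871512, 5 exons). It had 534, 625, 522, 513, 563, 517, 704 and 754 CPM in replicates 1 to 8, with replicates 2, 7 and 8 above the other 5. On the authors' normalised values this order was lost, and replicates 8 (10.05) and 2 (10.06) were the lowest for H2AFZ. H1F0, for the replacement linker histone H1.0, followed at 177 ± 33.0 RPKM (chr22:38201114-38203443). H3F3B, which encodes the replacement histone H3.3, stood at 149 ± 14.6 RPKM (chr17:73772515-73775860). H1F0 was above H3F3B in 6 of 8 libraries, and no test was made between them. H2AFY, the gene of macroH2A1, a variant with a large extra domain, was at 103 ± 10.5 RPKM. H1FX, for linker histone H1.10, was at 98.6 ± 48.1, H2AFX, whose product is phosphorylated at DNA breaks, at 82.5 ± 32.9, and H2AFV, the second H2A.Z gene, at 81.9 ± 7.96 RPKM. The ranges of these last 4 over libraries overlap. Within libraries H2AFY was above H2AFV in 8 of 8 and H1FX above H2AFX in 8 of 8. H2AFY was above H1FX and H2AFX in 6 of 8, all but replicates 2 and 8. H1FX and H2AFX were each above H2AFV in only 3 of 8, although their means were higher. All 7 lay at percentiles 92.3 to 99.3 of detected genes by RPKM.

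H3F3A, which encodes the same H3.3 protein as H3F3B, had only 6 to 20 counts per library, or 0.137 ± 0.0644 CPM (SD, n = 8). Its level cannot be read from these counts: the row H3F3AP4 covers 9276 of the 9296 bases of H3F3A and had 0 counts in all libraries. The authors gave no normalised value for H3F3A. The computed log2 ratio of H3F3B to H3F3A, 9.39 ± 0.28, is given for completeness and is not a measure of the H3.3 gene pair.

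Variants of the same histone class were compared per length within libraries, on log2(RPKM + 0.1), by an exact permutation test that flips the sign of each library's difference (two-sided). For 8 libraries the smallest p that the test can give is 0.00781, and every comparison reached it, also after Benjamini-Hochberg adjustment over 5 pairs including the unreadable one. H2AFZ exceeded H2AFV by 3.05 ± 0.15 on the log2 scale, an 8.28-fold difference seen in 8 of 8 libraries. H2AFZ exceeded H2AFX by 3.12 ± 0.34, with the smallest differences in replicates 2 (2.58) and 8 (2.59). H2AFY was below H2AFZ, with a log2 ratio of -2.72 ± 0.11. H1FX was below H1F0 by a variable amount, with a log2 ratio of -0.95 ± 0.45 that ran from -1.40 in replicate 1 to -0.14 in replicate 8 (all SD, n = 8). On the authors' normalised values, which adjust for length and GC content, these 4 log2 differences were 1.96, 1.44, -1.41 and -0.48, with the same directions and calls. The differences depend on the length assigned to a gene: with the union of all exons the H2AFZ to H2AFX difference was 1.73 and the H2AFY to H2AFZ ratio -4.47. With no length at all, on CPM, the H2AFZ to H2AFV difference was 1.25 and the H2AFY to H2AFZ ratio -1.58.

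HIST genes were divided by whether an annotated GENCODE transcript, or the span of the row, ran more than 100 bases past the stem-loop. This was so for 18 genes, called extended, while 46 ended at the stem-loop and 9 could not be classed. Of the extended genes 8 of 18 were detected (44.4%), against 3 of 46 that ended at the stem-loop (6.52%), beside 51.3% of all genes. The median of mean CPM was 1.36 for the extended genes and 0.255 for the others. Per length, the median of the extended genes was higher by 1.94 ± 0.32 on log2(RPKM + 0.1) (SD, n = 8), from 1.39 in replicate 2 to 2.45 in replicate 4. No test was made of this difference between lists. The 3 detected genes that ended at the stem-loop were HIST1H1C, HIST1H1E and HIST1H2AE, so the HIST gene with the highest CPM had no annotated extension. Among detected HIST genes alone the difference was 0.12 ± 0.48, within the spread between libraries. The annotation was built from many tissues, and whether the extended forms are made in these cells was not tested.

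**Figure D2:**
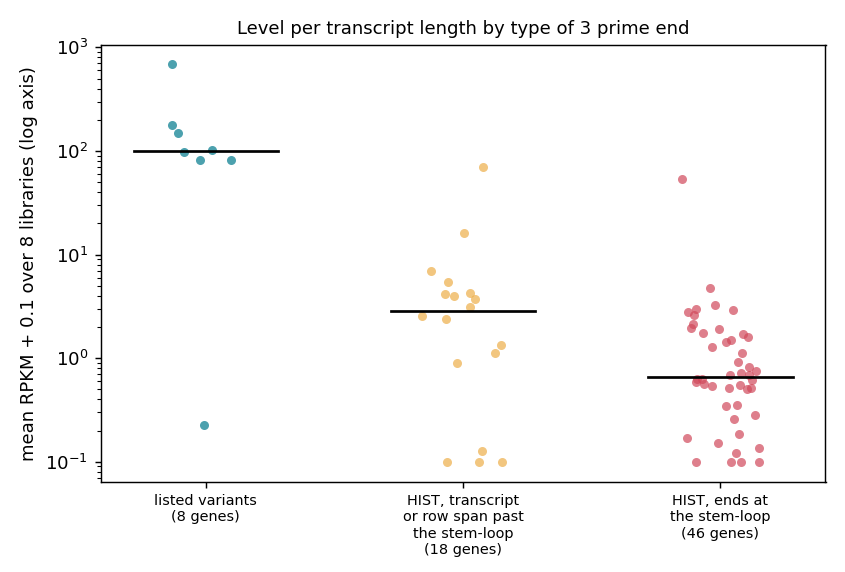
Mean RPKM + 0.1 over 8 libraries (log axis) of each listed variant, each extended HIST gene and each HIST gene that ends at the stem-loop, with a bar at the median. The 18 extended genes have a higher median than the 46 others, and HIST1H1C stands apart in the second HIST group.

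Variation between the libraries was tested with edgeR's goodness-of-fit test, which asks whether a gene varies more than the trend of genes of like abundance, with Benjamini-Hochberg adjustment over all 11980 detected genes. The test called 558 of them (4.66%). Of the 13 detected HIST genes 0 were called. Without adjustment 2 had a p under 0.05, HIST1H1C and HIST1H1E, and the lowest adjusted p in edgeR was 0.336, for HIST1H1C. With the DESeq2 trend as the dispersion these same 2 genes were called, but so were 23.5% of all genes. With no filter on low counts HIST1H2AB and HIST4H4 were called, beside 3.26% of all genes. Among the 7 tested variants 1 was called: H1FX (chr3:129033614-129035120), with 98.0, 259, 96.8, 113, 109, 105, 143 and 271 CPM in replicates 1 to 8 and an edgeR adjusted p of 0.0208. Replicates 2 and 8 were far above the other 6. The call was lost without replicate 2, and with the trend of each library on transcript length and GC content removed (edgeR adjusted p = 1.00). H2AFX showed a like pattern, with 192 and 230 CPM in replicates 2 and 8 and 91.9 to 138 in the others, but did not pass (edgeR adjusted p = 0.182).

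A minimum in every library drops genes that are low in a few, so the test was repeated, as a choice made after seeing the data, on genes with a mean CPM of at least 1. This held for 21 HIST genes, and the test called 4.82% of all 12642 such genes. Of the 21, HIST4H4 was called (edgeR adjusted p = 0.00448), with 2.23, 0.421, 1.76, 1.79, 0.881, 1.26, 1.36 and 0.308 CPM in replicates 1 to 8. Its lowest libraries were replicates 8 and 2. The call held without either of them and was lost without both. When the trends on length and GC content were also removed, 7 of 21 HIST genes were called, beside 6.47% of all genes. They were HIST4H4 (edgeR adjusted p = 1.1e-08), HIST1H1E (4.02e-05), HIST1H4E (4.36e-05), HIST1H1B (0.000106), HIST1H2BO (0.00031), HIST2H2BF (0.00188) and HIST1H4H (0.0117). Of these 7 only HIST1H1E was detected in every library. The rest passed the mean filter alone, which admits genes that are low in some libraries. Most of the 12642 genes behind the 6.47% were detected in every library, so that share is not a like background. With the trends removed among detected genes, 3 of 13 were called, beside 6.59% of all genes: HIST1H1E (edgeR adjusted p = 1.21e-07), HIST1H2BC (0.00391) and HIST1H2BK (0.0223). No listed variant was called in either fit with the trends removed.

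**Figure D3:**
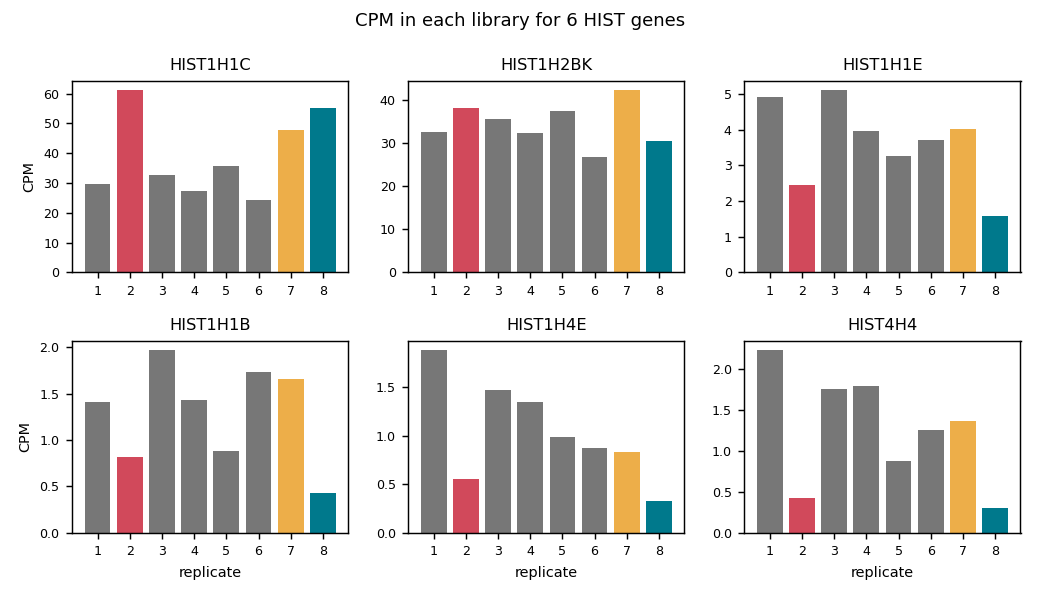
CPM in each of the 8 libraries for 6 HIST genes, with a bar per library from 0. HIST1H1C is high in replicates 2, 7 and 8, while HIST1H1E, HIST1H1B, HIST1H4E and HIST4H4 are lowest in replicates 2 and 8.

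In replicates 2 and 8 the median HIST gene was below its own mean while the median of other short genes was above it. The summed HIST level, of which HIST1H1C is a large part, did not follow this: replicate 2 had 147 CPM and replicate 8 130 CPM, and the lowest sum, 106 CPM, was in replicate 6. Replicates 2 and 8 are compared here because they had the steepest slopes on transcript length, a property of the whole library, and the comparison is a description with no test. The median deviation of the 13 detected HIST genes from their own mean, on log2(CPM + 0.1), was -0.10 in replicate 2 and -0.22 in replicate 8. It was also below 0 in replicates 1 (-0.03) and 6 (-0.16), and replicate 6 was lower than replicate 2. For the 21 HIST genes of the mean filter, which adds genes that are low in some libraries, it was -0.30 in both replicates 2 and 8. For 454 other genes with transcripts of 350 to 850 nt and a mean CPM of at least 1 it was 0.40 and 0.71. For the 7 readable variants it was 0.13 and 0.26. In replicate 7, which also had a negative slope, HIST genes (0.17) and other short genes (0.24) were both above their means. Between 13 detected HIST genes and 3273 detected genes of their length range, 460 to 2224 nt, the difference of median deviations was -0.40 in replicate 2 and -0.71 in replicate 8. HIST2H2BE alone sets the upper end of that range. The other detected HIST genes of known length have at most 787 nt, so the 3273 genes are not closely matched in length.

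Counted by gene, 8 of the 13 detected HIST genes (61.5%) and 15 of the 21 (71.4%) were below their own mean in both replicates 2 and 8, beside 41.7% of all genes and 5.51% of the 454 short genes. On the CPM scale, HIST1H1C and HIST3H2A were the only genes of the 21 above their mean in both. By CPM, replicates 2 and 8 were the lowest pair for 10 of 21 HIST genes, beside 29.9% of all genes and 2.64% of the short ones. Only HIST1H1E, HIST1H2BC, HIST1H2BG and HIST1H2BJ of these were among the 13 detected, a share of the detected HIST genes close to that of all genes. The rest entered through the mean filter alone, which admits genes that are low in some libraries. Of the variants 0 of 7 were below in both and 6 of 7 were above in both, all but H3F3B. On the authors' normalised values replicates 2 and 8 were the lowest pair for 18 of 21 HIST genes, beside 22.2% of all genes and 20.5% of the short ones. HIST1H1E went from 3.66 and 3.69 in replicates 1 and 3 to 1.85 in replicate 2 and 0.97 in replicate 8 on that log2 scale. HIST1H1B, for linker histone H1.5, was at 0.23 and -0.82 in replicates 2 and 8 and between 0.94 and 2.22 elsewhere. HIST1H4E was at 0.22 and -0.61 there, and between 1.05 and 2.76 elsewhere. H2AFX, by contrast, stayed between 8.61 and 8.76 in all libraries, and H1FX between 8.94 and 9.36. Among HIST genes of the mean filter with 350 to 850 nt, the 8 that end at the stem-loop had median deviations of -0.38 and -0.69 in replicates 2 and 8 on the CPM scale. The 10 extended ones had -0.04 and -0.26. This contrast depends on the filter, as most of the 8 passed only the mean filter. The detected ones, HIST1H1C, HIST1H1E and HIST1H2AE, deviated by 0.57, -1.07 and -0.22 in replicate 8. Detected extended genes of this length ran there from -0.39 (HIST1H2BC) to 0.47 (HIST3H2A). The part of the length slope in these deviations was not tested.

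**Figure D4:**
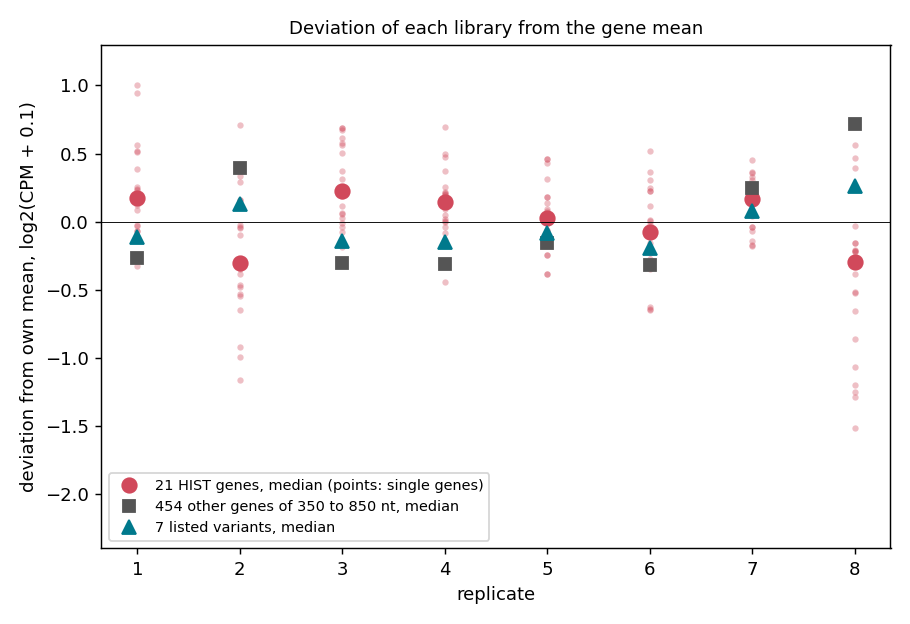
Deviation of each library from the gene mean on log2(CPM + 0.1), as medians of 21 HIST genes, 454 other genes of 350 to 850 nt and 7 listed variants, with a small point per HIST gene. In replicates 2 and 8 the HIST median lies at -0.30, below 0, while the medians of the other sets lie above 0.

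Genes that make and handle histone mRNA and protein were detected nearly throughout. Of 36 such genes 34 were detected. The exceptions were H2AFY2, a macroH2A paralog at 0.619 CPM, and H3F3C, an H3.3-like gene at 0.754 CPM. Among 3′ end processing genes, SLBP, which binds the stem-loop, was highest at 69.1 ± 7.05 RPKM and LSM11, of the U7 snRNP, lowest at 0.959 ± 0.275 RPKM. Of the genes listed for nuclear bodies linked to histone gene transcription, COIL stood at 13.7 ± 1.71 and NPAT, the coactivator of HIST transcription, at 7.70 ± 2.48 RPKM. In histone mRNA decay, LSM1 was highest at 44.1 ± 6.62 RPKM and the uridylyl transferase gene ZCCHC6 lowest at 4.26 ± 1.64. NASP, a chaperone of H3 and H4, reached 94.6 ± 10.8 RPKM and ASF1A, of the same group, 11.3 ± 0.827. ANP32E, which removes H2A.Z, led the variant chaperones at 60.6 ± 11.7 RPKM, and UBN2, of the HIRA complex, was lowest at 2.41 ± 0.938. H2AFJ, a further H2A variant, was at 106 ± 42.5 RPKM (all SD, n = 8).

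Of these 34 genes 2 were called above the variation trend, beside 4.66% of all genes. CASP8AP2, needed for histone pre-mRNA processing, had 69.4 ± 29.0 CPM (SD, n = 8; edgeR adjusted p = 0.00777). ATRX, which deposits H3.3 with DAXX, had 111 ± 54.5 CPM (edgeR adjusted p = 7e-05). Both were lowest in replicates 2, 7 and 8, the libraries with a negative slope on transcript length. CASP8AP2 had 37.2, 45.5 and 26.8 CPM there and 72.4 to 103 elsewhere. ATRX had 46.8, 59.4 and 35.6 CPM there and 126 to 163 elsewhere. With the mean filter and the trends on length and GC content removed, ATRX was called and CASP8AP2 was not. All 16 genes of an S phase list were detected, from 4.17 RPKM for CCNE1 to 243 RPKM for PCNA. None of the 16 was called by edgeR, and 0 had an unadjusted p under 0.05. Their median deviation lay between -0.08 and 0.09 on the log2 scale in every library, and was 0.09 in replicate 2 and 0.07 in replicate 8. Single genes moved in opposite directions behind this median. In both replicates 2 and 8, 8 of 16 were above their own mean, beside 46.7% of all genes with a mean CPM of at least 1. Another 4, CCNE2, CDC6, RRM2 and CCNA2, were below it in both, beside 41.7% of all such genes.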

How the data were processed

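The authors deposited 1 table of raw counts per gene for 8 libraries of polyadenylated RNA, per the file headers, beside CQN-normalised values on a log2 scale, which adjust for length and GC content. The table has 23346 genes, and 0 columns of samples were left unmatched. All 186768 counts were even (0 odd). The submitters' processing notes name CASAVA 1.9, TopHat2 2.0.6, HTSeq and hg19. The gene annotation and any use of strand in counting are not given in the sources used here, so overlapping genes, antisense genes and near-identical HIST copies are uncertain. Members and lists were chosen with earlier results of these data known.

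CPM values used TMM library sizes (edgeR 4.0.16, R 4.3.3). RPKM used canonical transcripts of GENCODE 44 lifted to GRCh37, which matched 78 of 81 members. The authors' normalised values were given for 34 of 73 HIST genes and 59.8% of all rows. Common variation between libraries was 24.0% (edgeR's biological coefficient of variation). DESeq2 1.42.0 gave an alternative trend and scaling; the parametric trend requested was replaced automatically by a local regression, which gave the values called DESeq2 trend here. On simulated data, 169 of 197 tested genes raised 4-fold in 1 library were called, 1 unchanged gene was called, and with no change 0 of 11826. Named genes were the variants, the 10 highest HIST genes, the highest of each histone type and cluster, those called, and the highest and lowest of each role. HIST1H2AE and genes named for their 0 counts or stem-loops were chosen after their values were seen.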

Additional observations from a re-analysis of the deposited data

Results flagged for a closer look

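Among 70 sets of 8 values examined for a single library far from the rest, 1 was flagged. SLBP, the stem-loop binding protein gene, had 153 CPM in replicate 7. The nearest library was at 130 CPM and the lowest at 114, so the gap to the nearest value took a fraction of 0.581 of the whole range. Chance alone gives such a gap in about 1 in 20 sets. SLBP was not the only gene here with 1 library far from the rest. Among the endothelial markers, CDH5 had 994 CPM in replicate 2, with 666 next and 493 lowest. ENG had 1275 CPM in replicate 8, with 804 next and 484 lowest.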

How the results depend on the processing

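No paired analysis was possible because all 8 libraries belong to 1 group. No result changed direction under any alternative run, and the cause of each shift below was not tested beyond what the setting itself changes. The 13 detected HIST genes became 22 at a CPM minimum of 0.5, 41 at 10 counts in each library and 28 at a CPM of 1 in any library. The HIST share of 0.0131% became 0.00923% without HIST1H1C. The log2 ratio of HIST to variants of -4.00 became -2.60 on summed RPKM and -6.62 on median log2 CPM. It became -7.60 between medians of the authors' normalised values, given for 34 of 73 HIST genes and not for H3F3A. The 0 HIST calls became 2 with no filter on low counts (HIST1H2AB and HIST4H4, beside 3.26% of all genes), 3 with the length and GC trends removed and 2 with the DESeq2 trend. The 1 variant call became 0 with the trends removed or without replicate 2, and 2 with the DESeq2 trend. The 2 calls among 34 histone supply genes became 8 with the DESeq2 trend, which called 23.5% of all genes, and 3 with DESeq2 size factors, which added UBN2 (edgeR adjusted p = 0.0515 in the first fit). Without replicate 8, 15 HIST genes were detected. The difference of 1.94 between extended and other HIST genes became 0.12 among detected genes. It became 1.10 on the authors' normalised values, which only 34 of 73 HIST genes have.

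Alternatives chosen after seeing the data gave 21 HIST genes at a mean CPM of 1, a log2 ratio of -4.51 without HIST1H1C and a difference of 1.48 between extended and other genes by row span alone. With the mean filter HIST calls were 1, also without replicate 8 or without replicate 2, and variant calls were 1, or 0 without replicate 2 and without both. With the mean filter and trends removed, calls were 7 for HIST, 0 for variants and 1 for supply genes (ATRX). Of the 7 HIST genes only HIST1H1E was among those detected in every library. The difference of -0.71 in replicate 8 became -1.06 against genes of 350 to 850 nt, and -1.10 without HIST1H1C. In the other alternatives run, counts of calls stayed within 1.5 times, values moved by less than 1 SD, and tested pairs kept their direction and call.

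Depth limits the lowest genes: 3 read pairs equal 0.0665 to 0.0865 CPM, near the level of the 11 HIST genes under 0.1 CPM.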
